A study of Mus musculus with 32 samples.

Results

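The sorted microglia of the Cx3cr1-CreER:RPL22-HA line gave 8 of the 32 libraries of this mouse brain study: 4 whose column in the count table is named SortIP, for sorted cells followed by anti-HA precipitation, and 4 whose column is named Sort. They were chosen and grouped by those column names alone. The sample titles and the antibody label of all 8 say the opposite: the 4 libraries in SortIP columns carry titles of sorted cells without precipitation and the antibody "none", and the 4 in Sort columns carry titles and antibody of the anti-HA precipitate. The groups are therefore called SortIP-column and Sort-column below, and under the titles every fold change given here for this line would have the opposite sign.

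All mice were C57BL/6 and carried RPL22-HA, the RiboTag allele, with a tamoxifen-inducible Cre driven either by Cx3cr1 (Cx3cr1-CreER:RPL22-HA) or by Sall1 (Sall1-CreER:RPL22-HA), 4 mice per line. Tamoxifen was given by gavage, 5 mg each of 4 times, at 4 to 6 weeks of age, and there was no group without tamoxifen. Each brain was divided into 4 samples: sorted cells, sorted cells plus anti-HA precipitation, and anti-HA or IgG precipitation straight from homogenate. Before sorting by flow cytometry the tissue had been digested with collagenase and spun through Percoll; the homogenate was instead made in buffer containing cycloheximide. The Sall1 line serves here as the same contrast in other mice, since its titles and column names give the same groups. Cx3cr1 is also expressed by macrophages at the borders of the brain, so that the Cre can act there too.

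Once Cre has acted, RiboTag adds a haemagglutinin (HA) tag to RPL22, a protein of the large ribosomal subunit, so that anti-HA beads pull down ribosomes of recombined cells with the mRNAs they are translating. Messages held in the nucleus, or kept off ribosomes in the cytoplasm, are poorer in such a precipitate than in the total RNA of the same cells. Ferritin mRNAs are a textbook case of the second kind: a hairpin in the 5′ UTR, the iron-responsive element, binds iron regulatory proteins that block the start of translation when iron is low. In microglia, the resident macrophages of the brain, Cx3cr1 encodes the fractalkine receptor.

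The ferritin heavy chain message had the smallest adjusted p of all genes tested, so the hairpin windows of both ferritin mRNAs are shown, with that of another mRNA known to carry the element. Each line is the first match, within the first 250 bases of the transcript, of C, any 5 bases and CAGTG, with 6 more bases before and 13 after it, written as DNA from 5′ to 3′; capitals mark the apical loop. They come from the GENCODE vM21 transcripts matched to the table's RefSeq accessions.
Fth1, transcript bases 87 to 116: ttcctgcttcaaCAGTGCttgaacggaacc
Ftl1, transcript bases 78 to 107: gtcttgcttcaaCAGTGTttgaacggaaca
Slc40a1, transcript bases 90 to 119: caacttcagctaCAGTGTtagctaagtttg
All 3 windows lie inside the annotated 5′ UTR. So short a pattern is common: it occurred in 9.365% of the 8521 tested coding transcripts in this window, and in 8.238% on the antisense strand.

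Gene counts per library were 905249, 985964, 1058912 and 677423 in the SortIP-column libraries of replicates 1 to 4 and 1675310, 746794, 1808789 and 1277891 in the Sort-column libraries. These counts over exons were 75.9, 71.2, 72.2 and 72.6% of the library total in the SortIP columns and 63.5, 65.9, 66.4 and 65.2% in the Sort columns. The groups did not overlap, and the share was higher in 4 of 4 pairs (two-sided exact sign-flip permutation test, with the smallest p that 4 pairs allow, which is above 0.05). In the Sall1 line it was 65.3 to 74.8% in SortIP and 62.1 to 65.8% in Sort, higher in 3 of 4 pairs.

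The cells were microglia by their markers in both groups. The 30 homeostatic microglia genes took up 17.01 to 18.8% of gene counts in SortIP-column libraries and 12.8 to 15.2% in Sort-column libraries, against 0.43 to 0.552% in the IgG libraries of the line. In bulk libraries fewer cells of a type and less RNA per cell cannot be told apart. Neuronal genes were scarce but not absent. They summed to 0.0255 to 0.0353% in the SortIP columns and 0.00824 to 0.0311% in the Sort columns, against 1.41 to 1.75% in IgG. Astrocyte and oligodendrocyte genes reached at most 0.441 and 0.221%, against 0.939 to 1.39% and 0.631 to 0.748% in IgG. Endothelial genes were not depleted, at 0.0911 to 0.102% (SortIP columns) and 0.0698 to 0.0862% (Sort columns) against 0.0673 to 0.0850% in IgG. Choroid plexus and ependymal genes took 0.0264 to 0.0707% and 0.0525 to 0.186% in these groups, against 0.0967 to 0.140% in IgG. Of the lists for monocytes, neutrophils, oligodendrocyte precursors and mural cells, 0 members reached the level needed for testing. Cx3cr1 itself, whose locus drives the Cre, was at 2374, 2395, 2556 and 3122 counts per 1000000 gene counts (CPM) in the SortIP columns and at 4519.8, 2475, 2393 and 4387 in the Sort columns (log2 fold change -0.22 ± 0.15 (SE), adjusted p = 0.33). Rpl22, the tagged gene, was at 212 ± 30.4 and 229.8 ± 21.8 CPM (SD, n = 4; adjusted p = 0.97), and neither it nor Cx3cr1 tells the groups apart.

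Of 8704 genes tested with replicate number as a block (edgeR quasi-likelihood test, Benjamini-Hochberg adjusted p under 0.05), 1375 were called, 15.8% of those tested. They split into 683 higher (7.85%) and 692 lower (7.95%) in the SortIP columns, with a median absolute log2 fold change of 0.70. In 1290 of the 1375 all 4 pairs went the same way. With library totals in place of TMM factors the median over all tested genes shifted to -0.13 from -0.01, and 357 genes were called higher and 1116 lower, so direction is relative to the bulk of genes. Without replicate 4 (the smallest SortIP-column library and its partner) 228 genes were called, and without replicate 1 there were 496; of the 228 and 496, 226 and 469 were among the 1375, in the same direction. Fold changes below are log2 of SortIP-column over Sort-column with their SE, and adjusted p values are from this test.

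**Figure D1:**
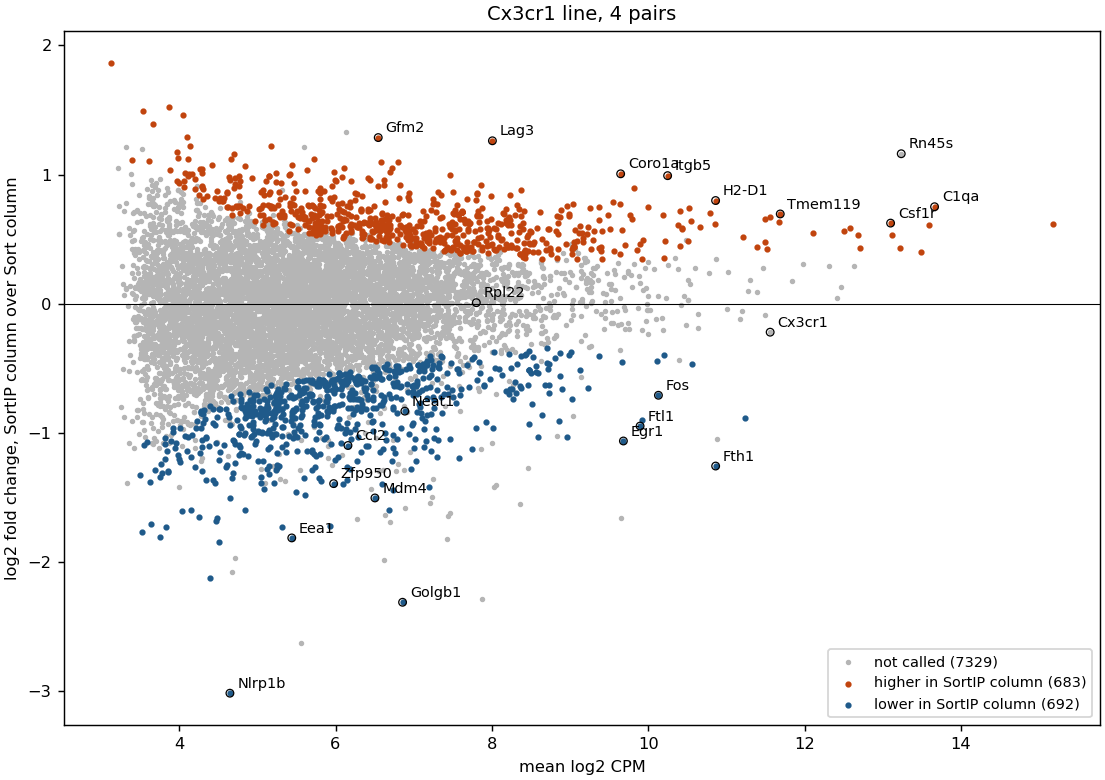
Log2 fold change of SortIP-column over Sort-column libraries (y axis) against mean log2 CPM (x axis) for the 8704 genes tested; red and blue points are the 683 genes called higher and the 692 called lower, and ringed points are named genes. C1qa and Csf1r are among the most abundant genes called higher, and Fth1 stands apart among abundant genes called lower.

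Genes that mark microglia lay higher in the SortIP columns. Of the 30 homeostatic genes 16 were called higher and 0 lower (median 0.41, against -0.01 over all genes tested). C1qa, a chain of the complement starter C1q, was at 16995, 14330.0, 15490.0 and 15513 CPM in the SortIP columns and 9092, 10546, 10730.0 and 9959 CPM in the Sort columns. All 4 SortIP-column values lay above all 4 Sort-column values, as for 18.7% of all genes tested (either direction), and the fold change was 0.75 ± 0.11 (adjusted p = 8.0e-04). Csf1r, the receptor on whose signal microglia depend for survival, was at 10215, 11253, 8412 and 11094 against 6939.6, 7766, 7050.0 and 7022 CPM (0.62 ± 0.11, adjusted p = 0.0018). Tmem119, a membrane protein that marks microglia, was higher by 0.69 ± 0.11 and the secreted Olfml3 by 0.70 ± 0.11. P2ry12, the purinergic receptor that guides microglial processes to ATP (0.17 ± 0.12, adjusted p = 0.32), and the transcription factor Sall1 (-0.09 ± 0.11, adjusted p = 0.64) were not called. Without replicate 4, 3 of the 30 were called higher, without replicate 1 there were 10, and with library totals 11 were called higher and 2 lower. Maf, a macrophage transcription factor on the border macrophage list, was called lower (-0.65 ± 0.14): 224, 194, 279.5 and 264 against 517, 309, 340.0 and 507 CPM. It was 1 of 3 genes of that list that were tested. The other 2 had positive fold changes and were not called, and the median was 0.01.

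**Figure D2:**
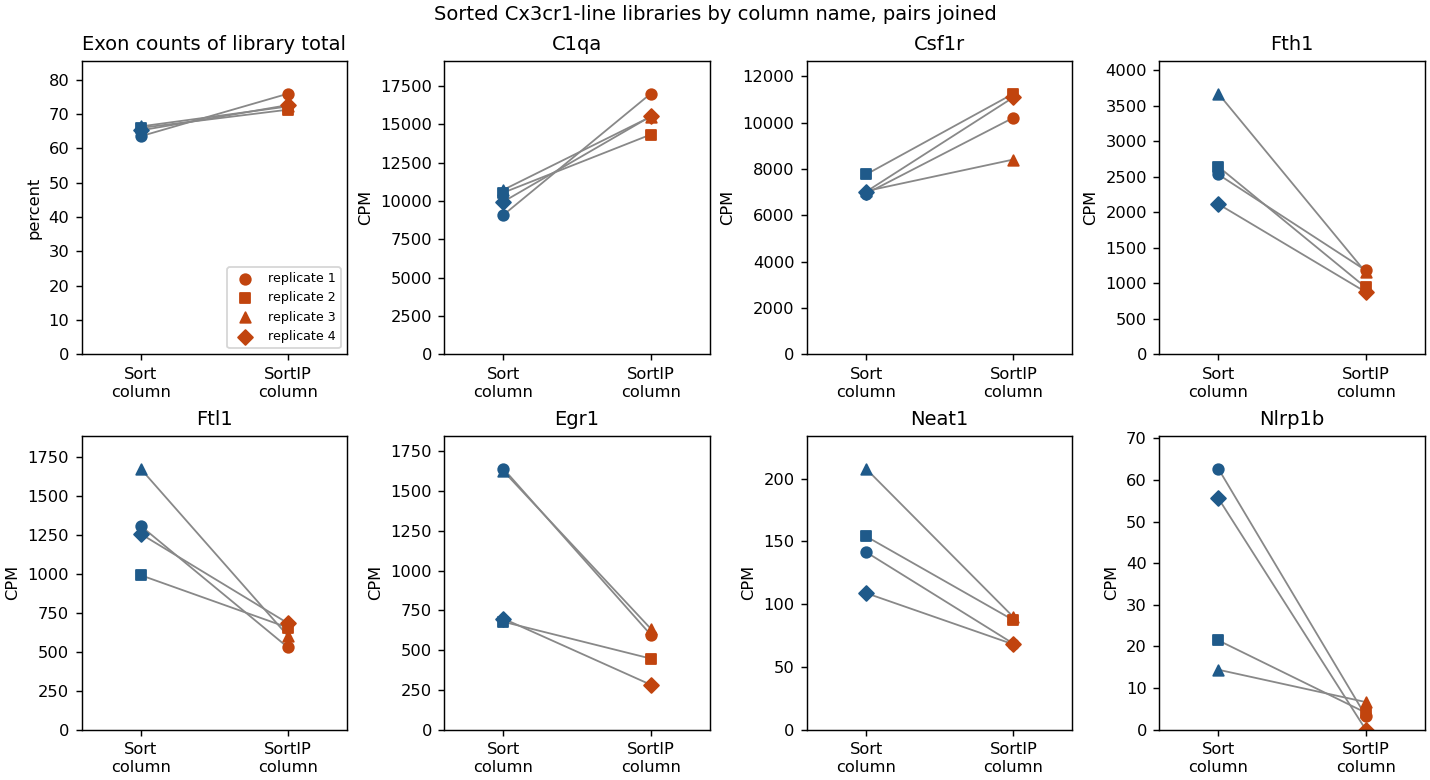
Exon counts as a percentage of the library total and CPM of 7 genes (y axes, from 0) in the Sort-column (blue) and SortIP-column (red) libraries; symbols give the replicate and lines join the pair. C1qa and Csf1r lie higher and Fth1, Ftl1, Egr1, Neat1 and Nlrp1b lower in the SortIP column in each of the 4 pairs.

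The ferritin messages introduced above fell. Ferritin heavy chain, Fth1 (mm9 chr19:10057136-10059601, plus strand), which oxidises iron for storage, was at 1183, 943, 1156 and 878 CPM in the SortIP columns and 2531, 2641, 3667 and 2114 CPM in the Sort columns. Its groups lay far apart, with a fold change of -1.26 ± 0.12 (adjusted p = 2.6e-05). Ftl1 (mm9 chr7:52713314-52715256, minus strand), the light chain that helps to form the iron core, was at 527, 654, 601 and 682 against 1307, 991, 1674 and 1256 CPM (-0.95 ± 0.13, adjusted p = 5.5e-04). Both genes were called under each of the 15 alternative settings, with fold changes from -1.38 to -1.17 for Fth1 and from -1.10 to -0.82 for Ftl1. Both have many processed copies in the genome, and the sources used here do not give how reads mapping to several places were counted.

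Of 5 genes on the list of mRNAs with the element that were tested, 2 were called lower and 0 higher (median -0.33), namely the ferritins. Slc40a1, the iron exporter ferroportin, was at 104, 109.5, 98.2 and 133 against 162, 122, 147 and 178 CPM (-0.33 ± 0.14, adjusted p = 0.12), and was not called. This list, and that of stress-response mRNAs with upstream open reading frames, were added after the values had been seen. Of 8 genes on the latter 2 were called lower: Atf4, the transcription factor of the integrated stress response (-0.53 ± 0.12, at 336, 261, 354 and 224 against 509, 394, 578 and 364 CPM), and Ppp1r15a, which ends that response (-0.73 ± 0.19). The median of the 8 was -0.15, and 4 of them had a positive fold change. Sat1, the enzyme that acetylates polyamines, whose translation polyamines control, was called lower (-1.12 ± 0.18, adjusted p = 0.0013). Of the 8, 0 were called without the block, without replicate 4 or with all 8 groups of the study in one fit, and 1 without replicate 1 or 3.

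RNAs known to stay in the nucleus, and genes of the splicing machinery, lay on the lower side. Neat1 (mm9 chr19:5824710-5845478, minus strand), the long noncoding RNA around which paraspeckles form, was at 68.5, 87.2, 89.7 and 67.9 CPM in the SortIP columns and 141, 154, 208 and 109 CPM in the Sort columns. The groups did not overlap (-0.83 ± 0.15, adjusted p = 0.0024). Once the trend of fold change with transcript length was removed, its fold change was -0.37 (adjusted p = 0.15). Malat1, the noncoding RNA of nuclear speckles, was at 719, 1082, 1157 and 961 against 5688, 762, 1577 and 3291 CPM. Replicate 2 of the Sort column lay within the SortIP-column range, and the gene was not called (-1.05 ± 0.76, adjusted p = 0.45). Neat1 was the only 1 of 5 nuclear-retained RNAs called, though each of the 5 had a negative fold change (median -0.83). Of 10 host genes of small nucleolar RNAs, Gas5 alone was called (-0.59 ± 0.20), near the 7.95% called lower over all genes tested. The median was -0.36, and without replicate 1, 2 or 4 there were 0 called.

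Of 35 splicing factor genes 14 were called lower and 0 higher (median -0.54). Rbm5, a splicing regulator of apoptosis genes, was at 141, 159, 152 and 106 against 355, 239.7, 261 and 347 CPM (-0.97 ± 0.16, adjusted p = 0.0018). Srsf5, a serine- and arginine-rich splicing factor, was lower by 0.66 ± 0.12 on the log2 scale in groups that did not overlap. The kinases that phosphorylate such factors were lower too: Clk1 by -0.64 ± 0.12, with 249.7, 207, 294 and 223 against 421, 323, 494 and 416 CPM, and Clk4 by -1.03 ± 0.22. Without replicate 4, 2 of the 35 were called lower, and without replicate 1 there were 8. Numbered zinc finger genes, most of which encode DNA-binding repressors, had 23 of 210 called lower and 6 higher (median -0.19). Over all genes tested 7.95% were called lower and 7.85% higher. Without replicate 4 there were 4 lower and 0 higher zinc finger genes. Without replicate 1 there were 8 lower and 3 higher, with DESeq2 9 and 2, with all 8 groups of the study in one fit 11 and 2, and with library totals 39 and 3. Once the trends of fold change with GC content and length were removed, the median was -0.03, with 17 lower and 4 higher. Zfp950 was at 25.4, 34.5, 25.5 and 31.0 against 107, 45.5, 61.4 and 142 CPM (-1.39 ± 0.25), Zfp69 was lower by -1.36 ± 0.29 and Zfp207, which acts at the spindle, was higher by 0.69 ± 0.13.

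Immediate early genes, whose transcription follows within minutes of a stimulus, were lower in the SortIP columns within each numbered pair, while pairs differed widely. Of 18 tested, 10 were called lower and 0 higher (median -0.46). Egr1, a zinc finger transcription factor of this class, was at 597, 446, 635 and 282 CPM in the SortIP columns and 1639.7, 678, 1625 and 697 CPM in the Sort columns. Replicates 1 and 3 were the high ones in both groups, and the fold change was -1.06 ± 0.13 (adjusted p = 4.0e-04). Fos, a subunit of AP-1, was at 1052, 508, 1304 and 341 against 2327, 636, 1967 and 824 CPM (-0.71 ± 0.14). Its groups overlapped, though each pair was lower. Atf3, a stress-induced repressor (-0.85 ± 0.19), and Zfp36, which destabilises cytokine mRNAs (-0.46 ± 0.12), were also called. Without the replicate block 0 of the 18 were called (Egr1 -1.12, adjusted p = 0.14), and without replicate 4 there were 2 and without replicate 1 or 3 there were 4 each. The summed level was 0.48 to 1.03% of gene counts in SortIP-column and 0.781 to 1.85% in Sort-column libraries, against 0.0943 to 0.106% in the anti-HA libraries precipitated straight from homogenate and 0.158 to 0.223% in the IgG libraries.

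Cytokine genes followed the same replicates. Of 14 tested 5 were called lower and 1 higher (median -0.15). Ccl3, a chemokine for monocytes and lymphocytes, was at 412, 166, 482 and 146 against 796, 242, 909 and 209 CPM (-0.63 ± 0.12, adjusted p = 0.0034). Ccl2, the main monocyte attractant, fell by 1.10 ± 0.18 on the log2 scale, Tnf by 0.71 ± 0.20 and Ccl4 by 0.47 ± 0.13. Icam1, the adhesion molecule bound by leukocyte integrins, was called higher (0.44 ± 0.13). Without the block 0 were called lower, and without replicate 1 or 4 there were 2 each. Of 18 interferon-stimulated genes 2 were called lower, the antiviral Oas2 (-1.01 ± 0.27) and Mx1 (-0.86 ± 0.24). The median was -0.02, 7 of the 18 had a positive fold change, and without replicate 3 or 4 there were 0 called. That count is near the 7.95% called lower over all genes tested and is no result about these genes.

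Inflammasome sensors held the gene with the largest fold change among those named here. Nlrp1b (mm9 chr11:70966604-71044235, minus strand), which is activated when pathogen proteases cut it, had 3, 4, 7 and 0 counts in the SortIP columns and 105, 16, 26 and 71 in the Sort columns. That is 3.31, 4.06, 6.61 and 0 CPM against 62.7, 21.4, 14.4 and 55.6 CPM, a fold change of -3.02 ± 0.57 (adjusted p = 0.010) that rests on few counts in the SortIP columns. It had 0 CPM in the 4 anti-HA libraries precipitated straight from homogenate of the line, and 0.909, 0.810, 0 and 0.868 CPM in the IgG libraries. Those anti-HA libraries held only 574671, 326898, 435875 and 286418 gene counts, so a level of a few CPM would leave few counts in each. Aim2, the sensor of cytosolic DNA, was at 64.1, 104, 80.3 and 62.0 against 228, 157, 154 and 160.4 CPM (-1.05 ± 0.18). Of the Naip genes, whose proteins recognise bacterial flagellin and secretion needles, Naip5 (-1.01 ± 0.19) and Naip6 (-0.70 ± 0.21) were lower while Naip2 was higher (0.59 ± 0.14, at 167, 189.7, 163 and 192 against 139.7, 139, 129 and 107 CPM). In all, 4 of 11 were called lower and 1 higher (median -0.29). The Nlrp1 and Naip genes have close paralogs in the mouse genome, so how reads are split among them is uncertain.

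**Figure D3:**
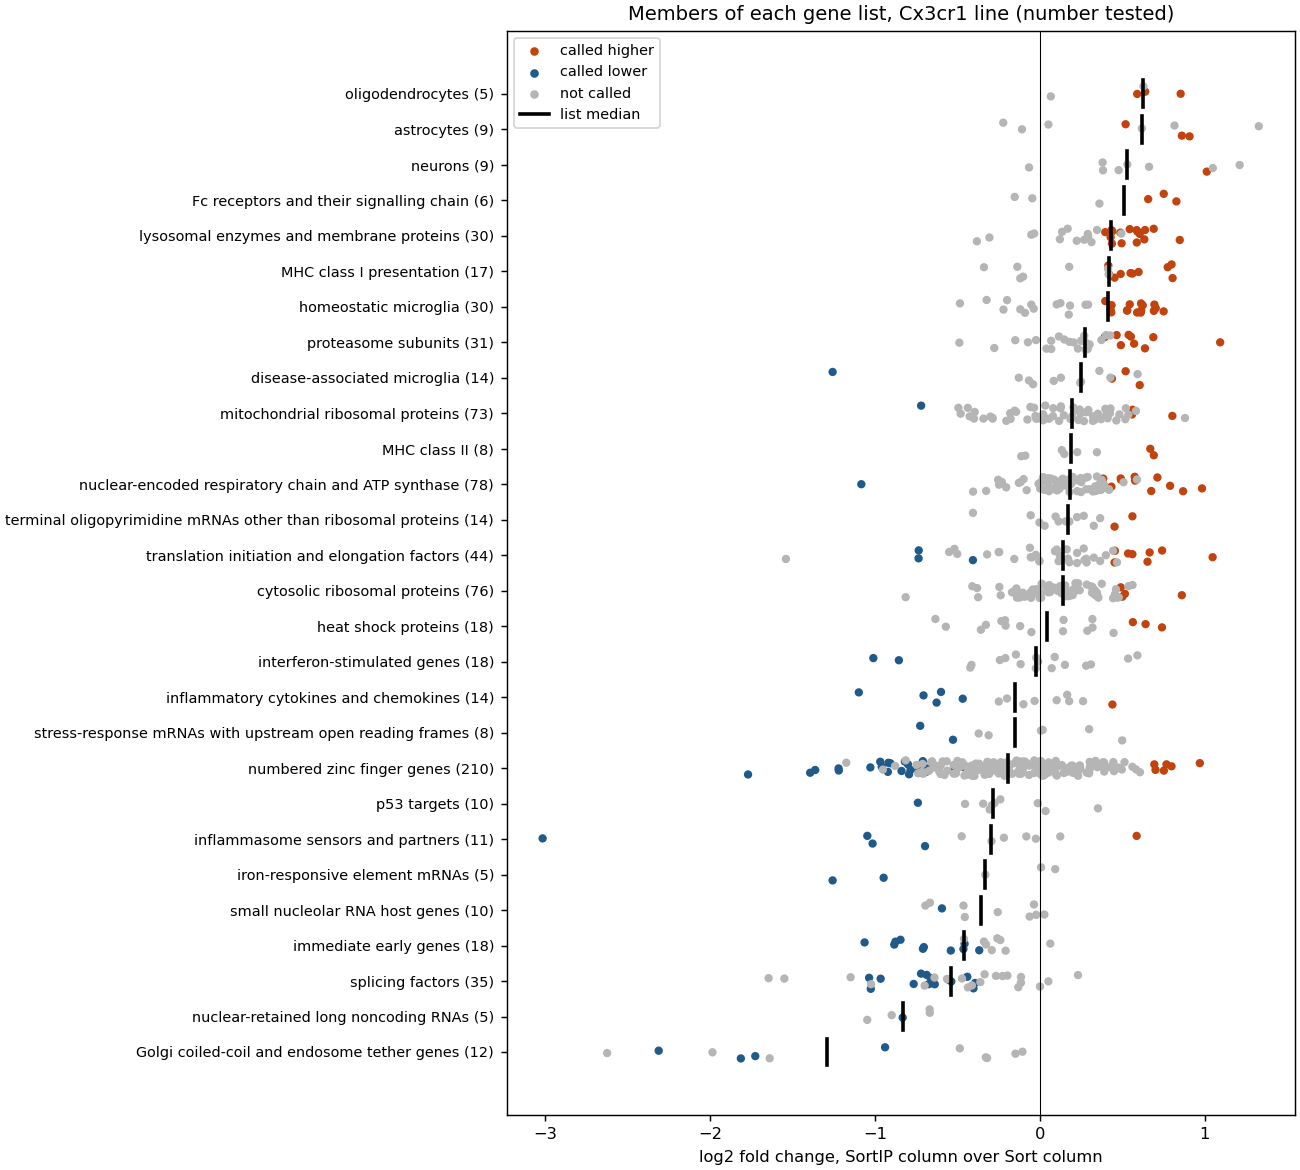
Log2 fold change of SortIP-column over Sort-column libraries (x axis) for each tested member of each list with at least 5 tested genes (y axis, number tested in brackets); red points were called higher, blue points lower, grey points neither, and black bars are list medians. Splicing factors and immediate early genes have no member called higher, and homeostatic microglia, lysosomal and MHC class I genes have none called lower.

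Genes of antigen presentation by MHC class I, the route by which peptides from inside the cell are shown to CD8+ T cells, lay higher: 10 of 17 were called higher and 0 lower (median 0.42). H2-D1, a classical class I heavy chain, was at 2172, 2131, 2751 and 1960.4 against 1099, 1437, 1907 and 1269 CPM (0.80 ± 0.11, adjusted p = 5.5e-04). B2m, the light chain common to class I molecules, was at 6302, 5224, 8112 and 6872 against 4243, 4176, 6236 and 4916 CPM, with overlapping groups but a rise in each pair (0.56 ± 0.11). Tap2, a chain of the peptide transporter, rose by 0.80 ± 0.14 and the non-classical H2-T23 by 0.78 ± 0.15. With library totals 7 were called higher and 1 lower, and 3 higher and 0 lower without replicate 4; without replicate 1 there were 5 higher. Class I heavy chains are near-identical in parts, so single members are uncertain. Receptors for the Fc part of antibodies, a list added after the values had been seen, had 3 of 6 called higher, among them Fcgr1 (0.75 ± 0.11), at 1298, 1161, 1201 and 1244 against 730.0, 786, 848 and 809.9 CPM, and Fcgr3 (0.66 ± 0.11).

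Lysosomal genes, which serve the digestion of what microglia engulf, had 16 of 30 called higher and 0 lower (median 0.43). Psap, the precursor of the saposins that activate sphingolipid hydrolases, was at 948, 1186, 975 and 998 against 525, 793, 719.8 and 754 CPM (0.69 ± 0.12). Grn, the lysosomal glycoprotein progranulin, was at 3584, 4188, 3508 and 3958 against 2329, 2705, 3004 and 2668 CPM (0.63 ± 0.11). The proteases Ctsa and Ctsl were higher by 0.59 ± 0.11 and 0.61 ± 0.11. Without replicate 4, 2 of the 30 were called higher, without replicate 1 there were 9, and with library totals 10 were called higher and 1 lower. Of 14 genes of disease-associated microglia, 3 were called higher and 1 lower (median 0.25): Apoe, the lipid carrier (0.52 ± 0.11), Ctsl and Ctsb (0.44 ± 0.11) against Fth1. Without replicate 4, 1 was called higher.

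Of 44 initiation and elongation factors 8 were called higher and 3 lower (median 0.14). Eif3d, a subunit of the cap-binding side of eIF3, was at 138, 141, 127 and 143 against 72.8, 69.6, 76.3 and 68.9 CPM (1.05 ± 0.15, adjusted p = 5.5e-04). Eif4a1, the helicase of the cap complex (0.74 ± 0.13), Eif4a3 of the exon junction complex (0.67 ± 0.13) and Eef2, which moves the ribosome along (0.56 ± 0.12), were called higher too. Eif5b, which joins the ribosomal subunits, was at 191, 192, 254 and 216 against 492, 245, 351 and 507 CPM (-0.74 ± 0.16). The 3 lower members are near the background of 7.95% and are no result about these genes. Without replicate 4 there were 3 higher and 0 lower, and without replicate 1 there were 4 and 0. Of 76 cytosolic ribosomal protein genes 4 were called higher and 0 lower (median 0.14), led by Rps4l (0.86 ± 0.16), which is annotated as a pseudogene. Many genes of this list have processed copies. Without replicate 2 there were 13 higher, and 1 without replicate 1, 3 or 4. Of 73 mitochondrial ribosomal protein genes 3 were called higher, among them Mrps34 (0.80 ± 0.17), and Mrps15 was called lower (-0.72 ± 0.16). Without replicate 1, 3 or 4 there was 1 higher. Both ribosomal protein counts are below the background of 7.85% higher and 7.95% lower.

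Proteasome and respiratory chain genes leaned higher, with most members not called. Over all genes tested 7.85% were called higher. With library totals in place of TMM factors, 4 of 31 proteasome genes were called higher and 1 lower (median 0.15). For the respiratory chain 7 of 78 were then higher and 1 lower (median 0.06), against a median of -0.13 over all genes tested. Of 31 proteasome genes 9 were called higher and 0 lower (median 0.27), and without replicate 4 and replicate 1 there were 1 and 3. Without replicate 3 there were 4. Psmb7, a catalytic subunit, was at 123, 97.4, 167 and 114 against 65.7, 67.0, 66.3 and 56.3 CPM (1.09 ± 0.17), and Psmc2, an ATPase of the cap, was higher by 0.69 ± 0.14. Of 78 nuclear-encoded genes of the respiratory chain and ATP synthase 11 were called higher and 1 lower (median 0.18). Uqcrc1, a core subunit of complex III, was at 231, 218, 200.2 and 255 against 139.7, 119, 144 and 134 CPM (0.87 ± 0.13). Ndufs4 of complex I (0.98 ± 0.19) and Atp5b, the catalytic subunit of ATP synthase (0.58 ± 0.12), were higher, and Atp5s was lower (-1.08 ± 0.34). The count of higher members was 3 without replicate 4, 6 without replicate 1, 7 without replicate 3 and 18 without replicate 2. Of 18 heat shock genes 3 were called higher, Hspa8 among them (0.74 ± 0.13), with a median of 0.04. Without replicate 4 there were 0, and without replicate 3 there were 1 higher and 2 lower. Of 10 p53 targets Ccng1 alone was called (-0.74 ± 0.22), near the 7.95% called lower over all genes tested, and 0 were called without replicate 1, 3 or 4.

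Among all abundant genes with every pair in the same direction, the largest rises outside these lists were those of Gfm2 (1.29 ± 0.17), a mitochondrial factor that recycles ribosomes, and Lag3 (1.26 ± 0.16), an immune checkpoint receptor. Lag3 was nearly constant in the SortIP columns, at 333, 355, 346 and 354 CPM, and varied in the Sort columns, at 113, 233, 188 and 121 CPM. Tlr12, a sensor of parasite profilin, rose by 1.10 ± 0.15, the sialic acid receptor Cd22 by 1.03 ± 0.18, the glycolytic enzyme Pfkl by 1.02 ± 0.15, the single-stranded DNA binder Rpa1 by 1.07 ± 0.20, the complement gene C4b by 1.22 ± 0.23 and Ndrg4 by 1.12 ± 0.22. Snrk (1.05 ± 0.18) and Tfip11 (1.02 ± 0.18) complete that set with Psmb7 and Eif3d. Itgb5, an integrin chain named after its values were seen, had the smallest adjusted p among the higher genes named (0.99 ± 0.11, adjusted p = 2.4e-04).

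The largest falls among abundant genes were those of long coiled-coil proteins of Golgi and endosomes. Golgb1, the Golgi tether giantin, was at 26.5, 28.4, 25.5 and 35.4 CPM in the SortIP columns and 369, 72.3, 64.7 and 262 CPM in the Sort columns. Replicates 1 and 4 of the Sort column were far above the others, and the fold change was -2.31 ± 0.47 (adjusted p = 0.034). Eea1, which tethers early endosomes, was at 13.3, 28.4, 10.4 and 13.3 against 86.0, 49.5, 40.9 and 76.7 CPM (-1.81 ± 0.27, adjusted p = 8.7e-04), with the same replicates highest. Replicates 1 to 4 of the Sort column had 1.29, 0.917, 0.990 and 1.29% of gene counts in splicing factors. For nuclear-retained RNAs the shares were 0.598, 0.101, 0.191 and 0.359%, again highest in replicates 1 and 4. Immediate early genes were instead highest in replicates 1 and 3. Whether the falls of these groups share a source in those libraries was not tested. Gcc2, a tether of the trans-Golgi network, fell by 1.73 ± 0.29, and Ccdc88a, an actin-binding coiled-coil protein, fell by 1.72 ± 0.29. On a list of 12 such genes, added after the values had been seen, 4 were called lower and 0 higher (median -1.29). The count was 2 lower without replicate 4 and 6 lower without replicate 1 or 3, and 7.95% of all genes tested were called lower. Because the list was drawn up with these falls known, its counts are no separate support for them. The p53 inhibitor Mdm4 fell by 1.50 ± 0.21, with 26.5, 65.9, 44.4 and 36.9 against 139.7, 118, 125 and 145 CPM, and Paxbp1 (-1.60 ± 0.33), Bdp1 of the RNA polymerase III machinery (-1.48 ± 0.31), BC005561 (-1.46 ± 0.24), Sltm (-1.44 ± 0.29), Dnajc21 (-1.43 ± 0.25), Filip1l (-1.42 ± 0.31) and Itsn2 (-1.40 ± 0.24) fell as well. Golgb1, Ccdc88a, Bdp1 and Filip1l were not called without the block, and Golgb1, Ccdc88a, Paxbp1, Bdp1, Sltm and Filip1l were not called without replicate 4.

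Called genes differed in base composition and in length of the untranslated end. The matched transcripts had a median GC content of 54.1% for genes called higher, 46.4% for genes called lower and 50.5% for the rest. The median 3′ UTR was 683 bases for the higher and 1278.5 bases for the lower set, while the median coding length was 1482 and 1491 bases. Across the tested genes, which are not independent replicates and share the same 8 libraries, Spearman's rho of fold change was 0.32 with GC content and -0.16 with the table's transcript length. Entries not annotated as protein-coding, pseudogenes among them, made up 3 of the 683 genes called higher, 20 of the 692 called lower and 126 of the 7329 not called. With the trends in GC content and length removed (chosen after seeing the data), 1293 genes were called and 1014 of the 1375 kept their call and direction. The counts were then 16 of 30 for homeostatic microglia higher, 16 of 30 for lysosomal genes higher, 12 of 18 for immediate early genes lower, 12 of 35 for splicing factors lower and 9 of 17 for MHC class I higher. Neat1 was not called (-0.48, adjusted p = 0.061).

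**Figure D4:**
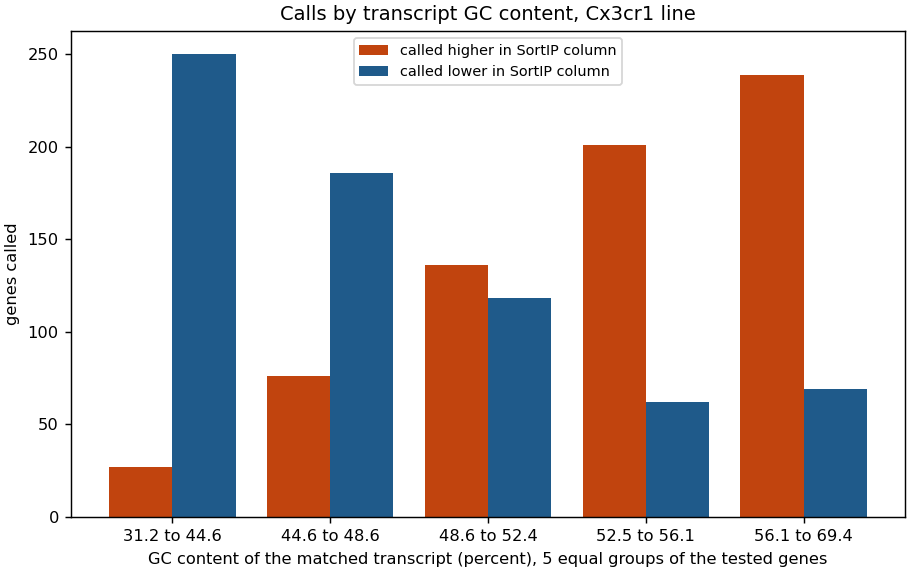
Number of genes called (y axis) in 5 equal groups of the tested genes by GC content of the matched transcript (x axis, percent); red bars are genes called higher and blue bars genes called lower in SortIP-column libraries. In the group of lowest GC content 27 were higher and 250 lower, and in that of the highest 239 were higher and 69 lower.

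Markers of other brain cells were also higher in the SortIP columns. Of 9 astrocyte genes 3 were called higher and 0 lower (median 0.62), among them Aldoc, the brain aldolase, at 33.1, 29.4, 26.4 and 47.2 against 9.55, 28.1, 24.3 and 18.8 CPM (0.91 ± 0.28). Of 5 oligodendrocyte genes 3 were called higher (median 0.63), namely Mbp (0.85 ± 0.21) and Cnp (0.59 ± 0.17) of myelin and the transferrin gene Trf (0.64 ± 0.12). Eng was 1 of 2 endothelial genes of 3 tested that were called (0.65 ± 0.13). Of 9 neuronal genes Gad1 alone, which makes GABA, was called higher (1.01 ± 0.30, median of the list 0.53). That count is near the 7.85% called higher over all genes tested and is no result about neuronal genes. Gad1 had 9 to 26 counts per library and kept its call under 7 of 14 alternatives. Each of these 4 lists summed higher in 4 of 4 pairs (the smallest exact sign-flip p possible): 0.247 to 0.441% against 0.196 to 0.381% of gene counts for astrocytes, 0.193 to 0.221% against 0.133 to 0.168% for oligodendrocytes, and 0.0911 to 0.102% against 0.0698 to 0.0862% for endothelial cells. Without replicate 4 the calls were 0 astrocyte, 1 oligodendrocyte, 0 neuronal and 0 endothelial genes, and without replicate 1 they were 2, 1, 0 and 1. Choroid plexus and ependymal genes went the other way without a call, with Ttr at 363, 290.1, 216 and 582 against 1686, 1721, 1192 and 461 CPM (-1.66 ± 0.69, adjusted p = 0.23). Ribosomal RNA precursor Rn45s took 0.707 to 2.02% of gene counts in the SortIP columns and 0.332 to 0.872% in the Sort columns, higher in 4 of 4 pairs but not called (adjusted p = 0.12). The part of these RNAs, and of the share of exon counts, in the gene results was not tested, apart from leaving Rn45s out, which gave 1376 calls.

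The Sall1 line gave the same contrast in 8 other libraries from other mice, and 1294 of 8603 genes were called there (15%), 635 higher (7.38%) and 659 lower (7.66%). Of 8381 genes tested in both lines, 1364 were called in the Cx3cr1 line and 1260 in the Sall1 line. The 706 called in both went in the same direction (352 higher, 354 lower), which is 51.8% of the first set and 56.0% of the second, and 0 were called in opposite directions. Across these genes the fold changes had a Pearson r of 0.75 and a Spearman rho of 0.74. The log2 fold changes of named genes in the Sall1 line were C1qa 0.81, Fth1 -1.35, Ftl1 -0.91, Egr1 -1.09, Neat1 -1.38, Nlrp1b -2.18, H2-D1 0.77 and Eif3d 0.92, each called. Lists gave 16 of 30 higher for homeostatic microglia, 19 of 30 higher for lysosomal genes, 19 of 35 lower for splicing factors and 6 of 18 lower for immediate early genes. Neuronal genes were 8 of 11 higher there, with a median of 1.38, and Gad1 at 2.74.

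**Figure D5:**
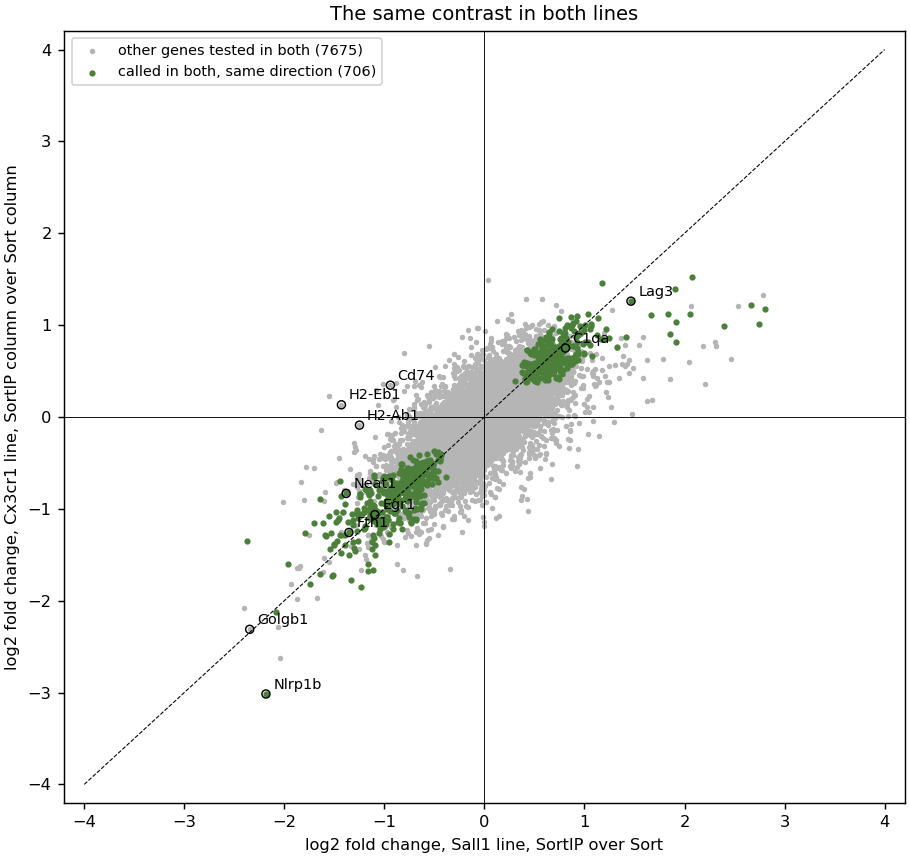
Log2 fold change of SortIP-column over Sort-column libraries in the Cx3cr1 line (y axis) against that of SortIP over Sort in the Sall1 line (x axis) for 8381 genes; green points are the 706 called in both lines in the same direction and the dashed line marks equal values. Ringed Cd74, H2-Ab1 and H2-Eb1 lie off the line.

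The test of the difference between the lines, over all 16 sorted libraries, called 3 of 9212 genes (0.0326%; 318 at an unadjusted p under 0.05), and 4 with DESeq2. With the groups of the Cx3cr1 line set by its sample titles, the same test called 2846 genes (30.9%). The 3 genes encode parts of MHC class II, which shows engulfed peptides to CD4+ T cells: H2-Eb1 (difference 1.56 ± 0.23, adjusted p = 0.0013), H2-Ab1 (1.16 ± 0.20, adjusted p = 0.0093) and the invariant chain Cd74 (1.28 ± 0.23, adjusted p = 0.026). In the Cx3cr1 line H2-Ab1 did not differ beyond its spread (-0.09 ± 0.12), at 180.1, 161, 506 and 310.0 against 246, 165, 552 and 366 CPM, with replicate 3 high in both groups. In the Sall1 line it was lower in SortIP (-1.25 ± 0.15), at 292.7, 194.9, 253.0 and 176.1 against 750.2, 346.0, 745.1 and 672.0 CPM in replicates 7, 9, 17 and 21. None of the 3 was called without the block, and the count was 0 without Sall1 replicate 17 and 1 without Sall1 replicate 7, Cx3cr1 replicate 3 or Cx3cr1 replicate 4. Other class II genes rose in both lines, such as H2-DMa, the peptide exchange factor (0.67 ± 0.12 and 0.53), and H2-Oa, its inhibitor (0.69 ± 0.15 and 0.91). In the Cx3cr1 line 2 of 8 class II genes were called higher and 0 lower, and in the Sall1 line 2 were higher and 4 lower.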

How the data were processed

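Polyadenylated RNA was measured. The authors deposited raw exon read counts of 24411 genes, 1 column for each of 32 libraries, with the library's total in the header. The tools named per the submitters' processing notes are HISAT 0.1.5, HOMER and bcl2fastq, with build mm9; the handling of multiply mapped reads and the strand setting are not given in the sources used here. From the deposited counts, counts per 1000000 gene counts (CPM) were computed.

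The 8 sorted Cx3cr1 libraries were grouped by column name. The members, lists and comparisons were chosen with earlier results of these data known. Replicate numbers were used as a block because, per the series' design, each brain was divided into 4 samples. Deviations from the group means of same-numbered libraries had correlations of -0.08, 0.15, 0.06 and 0.23, so the numbers are not evident from the counts alone. For replicates 1 and 3 the crossed pairs had higher values. These were 0.16 for SortIP-column 1 with Sort-column 3 and 0.08 for SortIP-column 3 with Sort-column 1. With this block the p-values measure how the difference between SortIP and Sort columns varied from pair to pair, not how brains differed in level. If the numbers do not pair, they measure the spread between libraries. No 2 libraries of a group were alike within counting error (chi-square divided by its degrees of freedom was at least 2.17).

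Genes passing the default low-count filter (minimum count 10) were tested with edgeR 4.0.16 in R 4.3.3 (TMM scaling, robust quasi-likelihood). The SE is the absolute log2 fold change over the square root of F. Alternatives were no block, DESeq2 1.42.0, other size factors or filters, thinned counts, a length correction, 1 fit over all groups, leaving out each replicate and, chosen after seeing the data, a GC and length correction and leaving out Rn45s. The code was tested on simulated data. Summed shares were compared by exact sign flips over the 4 pairs. Reads without molecular identifiers are not independent molecules. Transcript features came from GENCODE vM21 by RefSeq accession (99% matched), sequences only, since its build differs from mm9.

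Named genes are Cx3cr1, Rpl22, C1qa, Neat1 and Nlrp1b; per list up to 4 members of lowest adjusted p on the side of its median plus the best called member on the other side, or the 2 most abundant where none was called; the 12 higher and 12 lower called genes of largest fold change among those at a mean log2 CPM of 5 or more with 4 of 4 pairs in 1 direction; and genes called between the lines. P2ry12, Sall1, Slc40a1, Malat1, Sat1, Itgb5 and Rn45s were named after their values were seen. Some genes of a list were left out for length, and 1 member of the list of mRNAs with an iron-responsive element is not reported here and is in neither its counts nor its median.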

Additional observations from a re-analysis of the deposited data

Results flagged for a closer look

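In some sets of 4 libraries 1 value stood far from the other 3, by Dixon's ratio of the gap to the whole range. This was so in 11 of 218 sets of gene values, and chance flags about 1 in 20. In the SortIP columns replicate 4 was high for Trf (1907 CPM; the others 1665 to 1700.1) and Mbp (81.2; 62.3 to 63.0), and replicate 2 for Tap2 (194.7; 134.1 to 138.8), Srsf5 (455; 309 to 332) and Eea1 (28.4; 10.4 to 13.3). In the Sort columns replicate 2 was high for Csf1r (7766; 6939.6 to 7050.0) and Tap2 (124.5; 79.8 to 87.4). There replicate 1 was high for Aim2 (228; 154 to 160.4), replicate 3 for Gfm2 (76.8; 47.8 to 52.2) and Cd74 (452; 133 to 186), and replicate 4 was low for Psmb7 (56.3; 65.7 to 67.0).

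Of 76 sets of summed list shares 7 had such a value. SortIP-column replicate 4 was high for oligodendrocyte genes (0.221% of gene counts; 0.193 to 0.194%) and neutrophil genes (0.00399%; 0 to 0.000406%). SortIP-column replicate 1 was high for lysosomal genes (6.66%; 6.38 to 6.41%) and replicate 3 for interferon-stimulated genes (0.151%; 0.0945 to 0.104%). Sort-column replicate 3 was high for oligodendrocyte genes (0.168%; 0.133 to 0.135%) and disease-associated microglia genes (1.35%; 0.957 to 0.965%), and replicate 2 was low for translation factors (0.627%; 0.756 to 0.774%).

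The response of SortIP over Sort differed between the lines for H2-Eb1 (1.56), H2-Ab1 (1.16) and Cd74 (1.28 on the log2 scale), by the interaction test of edgeR.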

How the results depend on the processing

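For the Cx3cr1 line, 1115 genes were called without the replicate block, 571 with DESeq2 (293 higher, 278 lower) and 668 with all 8 groups in one fit (278 and 390). Library totals without TMM scaling called 357 higher and 1116 lower, and no low-count filter called 694 and 1016. Leaving out 1 replicate gave 228 to 1265 calls (117 to 600 higher, 111 to 665 lower), lowest without replicate 4. Under no alternative was any of the 1375 calls reversed as a call (0 under each), and of the genes named only Rpl22 (-0.12 to 0.09) and Sall1 (-0.21 to 0.03), neither called, changed sign. Of 109 genes examined one by one, 44 lost their call without replicate 4, 29 with all 8 groups in one fit, 22 without the replicate block, 21 without replicate 1, 17 with DESeq2 and 12 without replicate 3. For the Sall1 line, 906 genes were called without the replicate block (437 lower), 550 with DESeq2 (284 higher, 266 lower) and 702 to 987 without 1 replicate (353 to 462 higher, 349 to 543 lower). The difference between the lines had 0 calls without the replicate block or with all 8 groups, 0 to 4 without 1 replicate (0 to 4 higher), and 2846 with groups by title (1438 higher, 1408 lower). The cause of these shifts was not tested, beyond the fewer samples. Depth limits the precision: the smallest library held 677423 gene counts, and thinning all to it gave 1175 calls.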
